A study of Rattus norvegicus with 9 samples.

Results

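The 10 genes described here encode proteins that shape the cristae of mitochondria, join mitochondria together or divide them. They were taken by gene name from the 22608 genes of a rat heart RNA-seq series, and the estimated counts of all transcripts carrying 1 of these names were summed per gene. The genes are Apool, Apoo, Immt and Chchd3 of the cristae junction complex, Opa1, Mfn1 and Mfn2 of fusion, and Dnm1l, Fis1 and Mff of fission. They were selected on their summed levels in these same libraries, and all 3 comparisons of groups are treated as used for that choice. Their differences between groups are given as a description with no test, and nothing is supported by them. All 10 passed the filter on low counts, which left 15467 genes.

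Left ventricle RNA was sequenced from Sprague-Dawley rats of 3 groups with 3 libraries each. One group received saline, another angiotensin II (Ang II), a hormone that constricts vessels and stresses the heart, and the remaining group received Ang II together with sodium butyrate (NaBu), a histone deacetylase inhibitor that gut bacteria also make as butyrate. Below, NaBu as the name of a group, library or comparison means Ang II with NaBu. No group received NaBu alone, so NaBu against saline differs by both treatments. Every rat is labelled as 8 weeks old plus 28 days, treatment lasted 28 days, and no dose or route is stated. They do not say whether libraries came from separate animals, so the spread between them can be technical in part.

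Cristae are folds of the inner mitochondrial membrane that carry the respiratory chain, and their narrow necks are held by the MICOS complex (mitochondrial contact site and cristae organizing system). Mitofusins in the outer membrane and OPA1 in the inner membrane are GTPases that merge mitochondria, while the GTPase DRP1, encoded by Dnm1l, is drawn from the cytosol by adaptor proteins and constricts them. Cardiomyocytes are densely packed with mitochondria, and loss of mitofusins or of DRP1 in them impairs the heart.

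Promoter sequences were available in the RefSeq table of the build GRCr8 for 8 of the 10 genes, in 10 entries, and Immt and Mfn2 had none. The stretches below show Apool and Apoo, both on the X chromosome, which had the widest differences with NaBu, and Chchd3 and Mff as examples of a MICOS and a fission gene with motif matches. Each stretch lies within the 250 bases before a transcript start and outside the RefSeq span of the gene, 5′ to 3′ on the gene's strand, with motif matches in capitals.
Apool (chrX:81569710-81569959, plus strand): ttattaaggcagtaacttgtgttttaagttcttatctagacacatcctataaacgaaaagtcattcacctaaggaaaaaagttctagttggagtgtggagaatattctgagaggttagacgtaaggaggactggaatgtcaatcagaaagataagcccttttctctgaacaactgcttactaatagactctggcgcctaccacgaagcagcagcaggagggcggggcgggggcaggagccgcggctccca
Apoo (chrX:63151606-63151735, plus strand): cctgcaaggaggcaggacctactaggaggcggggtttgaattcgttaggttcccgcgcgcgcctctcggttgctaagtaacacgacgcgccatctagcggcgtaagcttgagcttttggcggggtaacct
Chchd3 (chr4:62584086-62584283, minus strand): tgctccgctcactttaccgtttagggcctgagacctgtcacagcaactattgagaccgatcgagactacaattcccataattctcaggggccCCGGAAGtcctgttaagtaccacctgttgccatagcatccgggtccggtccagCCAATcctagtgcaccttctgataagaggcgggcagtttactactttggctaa
Mff (chr9:91455681-91455930, plus strand): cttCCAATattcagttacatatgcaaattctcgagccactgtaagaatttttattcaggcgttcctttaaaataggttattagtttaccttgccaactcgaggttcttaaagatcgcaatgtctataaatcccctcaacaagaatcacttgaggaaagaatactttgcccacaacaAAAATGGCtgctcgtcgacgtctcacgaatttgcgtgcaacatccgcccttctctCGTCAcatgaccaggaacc
A set of motifs was searched on both strands of all 33469 promoters. The Chchd3 stretch holds CCGGAAG, the core of sites for ETS-family factors such as GABP, and CCAAT, the NF-Y box. Over the full windows of 250 bases, 7.27% and 34.0% of all promoters held these. In the Mff stretch the capitals mark CCAAT, a YY1 match to AANATGGC, held by 4.23% of promoters, and the reverse complement of TGACG, the core of a cAMP response element, held by 18.2%. No searched motif lay in the Apool and Apoo stretches printed, but TGACG began 118 bases before the start in the unprinted rest of the Apoo window and 53 bases before the start in a second Apool entry. Of the promoters not printed, that of Mfn1 held the ETS core 32, the YY1 match 97 and CCAAT 52 bases before its start. The Opa1 promoter matched the palindromic NRF1 site, beginning 134 bases before the start, as 4.8% of all promoters did, and held CCAAT 14 bases before the start. One of the Fis1 entries held CCAAT, and the Dnm1l promoter held no searched motif. The E-box CACGTG (5.59% of promoters) occurred in the promoter of Chchd3 nearer its start, and the estrogen-related receptor element TNAAGGTCA (1.04%) in none of the 10 entries. A match is a description of letters and does not show that a factor was bound.

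Saline replicate 2 stood apart from the other libraries. The summed level of 5 atrial cardiomyocyte markers was 5634 CPM in it and 24.53 to 256.7 CPM in the other 8 libraries, although the labels name left ventricle. The highest of these 8 was saline replicate 3, at 256.7 CPM. Saline replicate 1 was at 59.59 CPM, Ang II libraries at 24.53 to 53.23 CPM and NaBu libraries at 50.09 to 83.38 CPM. Saline replicate 2 was the lowest of the 9 libraries for 9 of the 10 genes, all but Fis1, so each gene's comparisons with saline are given with and without it. Saline replicate 3 stays in the comparisons without saline replicate 2. CPM is the count of a gene scaled to a common library total, here after TMM scaling, and library totals were 29284780 to 49865446 estimated counts. Genes are not compared with each other by level, because the values are not per length.

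Apool and Apoo encode the MICOS subunits MIC27 and MIC26, which belong to the apolipoprotein O family and lie in the inner membrane at cristae junctions. Apool was at 27.7, 26.4 and 43.4 CPM in saline replicates 1 to 3, at 30.5, 38.7 and 37.8 CPM in Ang II replicates 1 to 3, and at 73.4, 56.4 and 67.4 CPM in NaBu replicates 2, 4 and 6. For these summed counts, every NaBu library was above every library of both other groups, which overlapped each other. The log2 difference of NaBu against Ang II was 0.88 (SE 0.191, edgeR, n = 3 against 3), a 1.84-fold level, and against saline it was 1.02 (SE 0.192), or 0.90 without saline replicate 2. Ang II differed from saline by 0.14 (SE 0.191), within the spread of the libraries, by 0.0071 without saline replicate 2 and by 0.40 without saline replicate 3. Of the 2 Apool transcripts summed, RefSeq still lists NM_001014105.1, which overlapped between NaBu and Ang II. It was at 23.5, 27.7 and 21.6 CPM with Ang II and 49.1, 27.2 and 35.8 CPM with NaBu. XM_006257191.3 was at 6.99 to 16.2 CPM with Ang II, 24.3 to 31.7 CPM with NaBu and 4.52 to 29.0 CPM with saline. With the highest transcript per gene, the Apool difference of NaBu against Ang II was 0.60 (SE 0.258).

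Apoo was at 64.6, 35.9 and 46.3 CPM with saline, 42.1, 54.2 and 54.5 CPM with Ang II, and 72.6, 73.6 and 89.8 CPM with NaBu. The NaBu libraries again lay above all others, and saline replicate 1 came nearest to them. NaBu was 0.65 higher than Ang II on the log2 scale (SE 0.199, 1.56-fold) and 0.69 higher than saline (SE 0.199), or 0.52 without saline replicate 2. Ang II against saline was 0.04 (SE 0.199) with saline replicate 2 and -0.15 without it. RefSeq names 2 pseudogenes for Apool and 4 for Apoo, and how reads shared with such copies were assigned is not given in the sources used here.

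Immt encodes mitofilin (MIC60), the core scaffold of MICOS. Its levels were 203.9, 151.6 and 221.4 CPM in saline, 164.7, 210.4 and 205.5 CPM in Ang II, and 275.6, 243.6 and 276.8 CPM in NaBu libraries. All NaBu values exceeded all values of the other groups, with log2 differences of 0.46 against Ang II (SE 0.152, 1.37-fold) and 0.46 against saline (SE 0.152), the latter 0.33 without saline replicate 2. For Ang II against saline Immt was at 0.01 (SE 0.152), and at -0.14 without saline replicate 2. Chchd3, which encodes MIC19, the partner that links mitofilin to the outer membrane machinery, was at 139.2, 89.9 and 181.9 CPM with saline, 137.5, 135.6 and 149.0 CPM with Ang II, and 192.0, 158.7 and 193.0 CPM with NaBu. The NaBu libraries were above the Ang II libraries (log2 difference 0.37, SE 0.208), but NaBu replicate 4 fell below saline replicate 3. Against saline the difference of Chchd3 was 0.40 (SE 0.208) with saline replicate 2 and 0.19 without it, and that of Ang II was 0.04 (SE 0.208) and -0.19.

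Within each library, the level of Apool can be set against that of Immt. That ratio was 0.136, 0.174 and 0.196 in saline, 0.185, 0.184 and 0.184 in Ang II, and 0.266, 0.232 and 0.244 in NaBu libraries. It was higher in each NaBu library than in each other library, and the saline and Ang II libraries overlapped. The ratio of Apool to Apoo was 0.711 ± 0.015 (SD, n = 3) with Ang II and 0.843 ± 0.146 with NaBu, whereas saline spread from 0.429 to 0.936 and overlapped both.

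**Figure D1:**
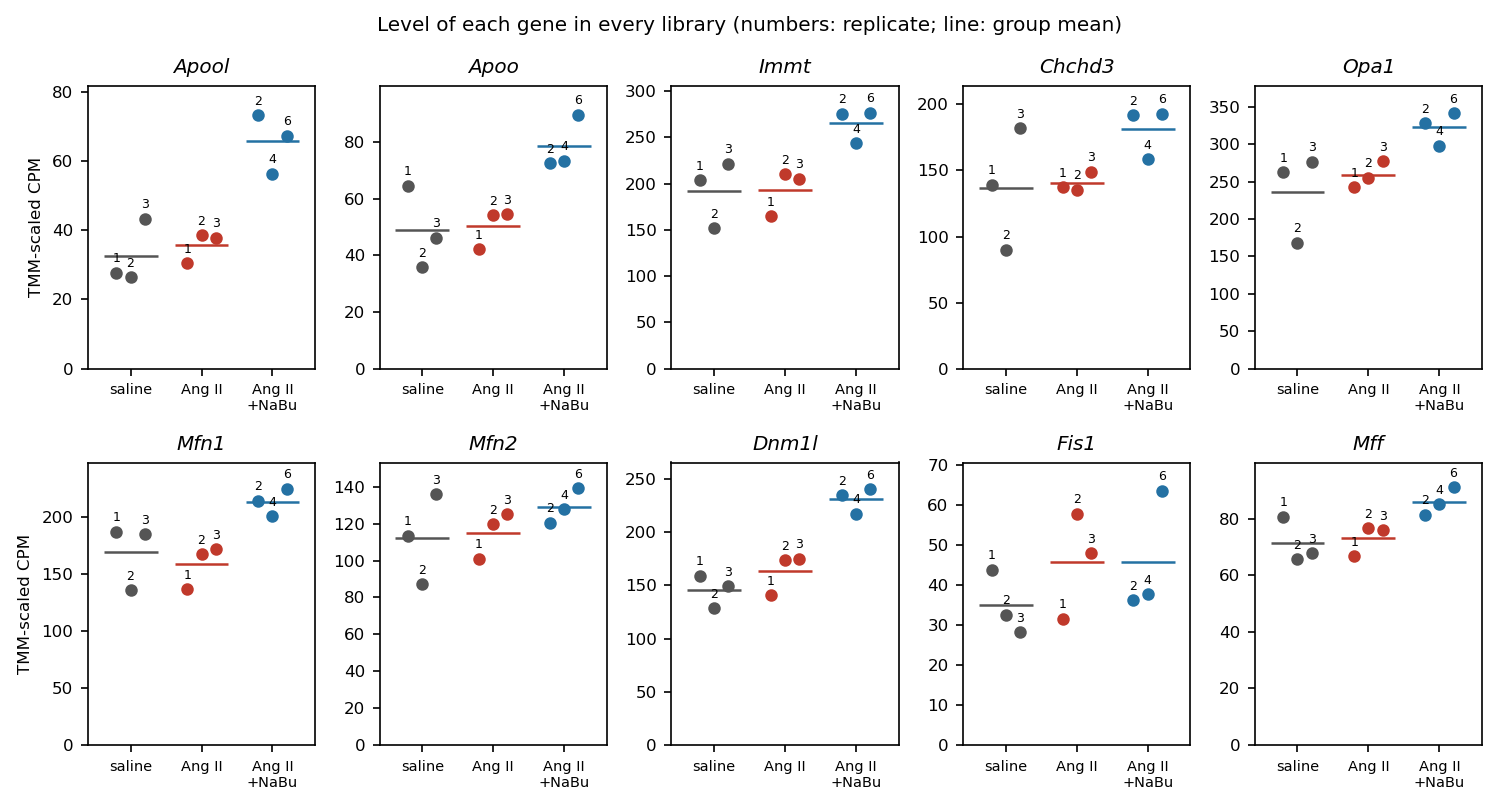
TMM-scaled CPM of each gene (vertical axes, from 0) in every library, with saline in grey, Ang II in red and Ang II with NaBu in blue; points are single libraries marked with their replicate number and lines are group means. NaBu points lie above all Ang II points for 8 genes, while the groups overlap for Mfn2 and Fis1.

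Opa1 encodes the inner membrane GTPase that fuses inner membranes and narrows cristae. It was at 262.6, 168.3 and 276.6 CPM with saline, 242.4, 255.3 and 277.5 CPM with Ang II, and 328.6, 298.4 and 341.5 CPM with NaBu. The NaBu libraries were above all 6 others, by 0.32 over Ang II on the log2 scale (SE 0.168, 1.25-fold) and by 0.45 over saline (SE 0.168), or 0.27 without saline replicate 2. Saline replicate 2 was far below the other saline libraries, which were as high as the Ang II libraries, and the Opa1 difference of Ang II against saline was 0.13 (SE 0.168) with it and -0.06 without it.

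Mfn1 and Mfn2 encode the mitofusins of the outer membrane, of which mitofusin 2 also tethers mitochondria to the endoplasmic reticulum. Mfn1 was at 186.6, 135.6 and 184.6 CPM with saline, 136.4, 167.1 and 171.2 CPM with Ang II, and 213.9, 200.3 and 224.6 CPM with NaBu. It was the 1 gene of the 10 whose fitted difference of Ang II against saline was below 0 (-0.09, SE 0.141, or -0.23 without saline replicate 2), within the spread. NaBu libraries were above all others for Mfn1, with log2 differences of 0.43 against Ang II (SE 0.141, 1.35-fold) and 0.33 against saline (SE 0.141), or 0.21 without saline replicate 2.

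For Mfn2 the levels were 113.5, 87.0 and 136.1 CPM with saline, 101.1, 119.6 and 125.0 CPM with Ang II, and 120.5, 127.8 and 139.2 CPM with NaBu. These groups overlapped in every comparison, and the log2 difference of NaBu against Ang II was 0.16 (SE 0.155). Against saline, NaBu differed by 0.20 (SE 0.156) with saline replicate 2 and 0.06 without it, and Ang II by 0.04 (SE 0.156) and -0.12. The ratio of Mfn1 to Mfn2 was 1.35, 1.40 and 1.37 in the Ang II libraries and 1.78, 1.57 and 1.61 in the NaBu libraries, without overlap. In saline it was 1.64, 1.56 and 1.36, overlapping both groups.

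Dnm1l, which encodes the fission GTPase DRP1, was at 159.2, 128.3 and 149.4 CPM with saline, 140.7, 173.9 and 174.9 CPM with Ang II, and 234.8, 217.3 and 240.2 CPM with NaBu. The gap between the NaBu libraries and all others was wide next to the spread inside each group. NaBu was 0.50 above Ang II on the log2 scale (SE 0.119, 1.41-fold) and 0.66 above saline (SE 0.12, 1.58-fold), or 0.59 without saline replicate 2. Ang II was 0.16 above saline (SE 0.119), or 0.08 without saline replicate 2, and these groups overlapped.

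Mff and Fis1 encode outer membrane proteins of fission, Mff being a main receptor for DRP1 and the part of FIS1 in mammals being less settled. Mff was at 80.8, 65.8 and 68.0 CPM with saline, 66.9, 76.8 and 76.0 CPM with Ang II, and 81.4, 85.2 and 91.3 CPM with NaBu. NaBu libraries were above all others by a small margin, with a log2 difference of 0.23 against Ang II (SE 0.108, 1.17-fold) and 0.26 against saline (SE 0.108), or 0.22 without saline replicate 2. For Ang II against saline the Mff difference was 0.03 (SE 0.108), and -0.03 without that library. The ratio of Dnm1l to Mff was 1.97, 1.95 and 2.20 in saline, 2.10, 2.26 and 2.30 in Ang II, and 2.88, 2.55 and 2.63 in NaBu libraries, higher in every NaBu library than in any other.

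Fis1 did not separate NaBu from the other groups. It was at 43.8, 32.6 and 28.2 CPM with saline, 31.6, 57.8 and 47.9 CPM with Ang II, and 36.1, 37.7 and 63.6 CPM with NaBu. The groups overlapped throughout, with log2 differences of 0.39 both for Ang II and for NaBu against saline (SE 0.271 each), which were 0.34 and 0.36 without saline replicate 2. Between NaBu and Ang II the difference was 0.00 (SE 0.269), and its sign turned when single libraries were left out (-0.31 to 0.22). RefSeq names 1 pseudogene each for Fis1 and Chchd3.

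Over the 10 genes, 9 were higher with Ang II than with saline by the fitted difference, beside 49.0% of the 15467 genes, and the median log2 difference was 0.04. None was called at a Benjamini-Hochberg adjusted p under 0.05 by edgeR, beside 0% of all genes, where 918 of all genes and 0 of the 10 had an unadjusted p under 0.05, and DESeq2 called 60 genes and 0 of the 10. No gene of the 10 separated the groups, beside 4.94% of all genes that did so upward and 4.97% that did so downward. This direction depended on single libraries. Without saline replicate 2, 3 of the 10 were higher, beside 49.5% of all genes, and the median was -0.09. It was 5 of the 10 without saline replicates 2 and 3, which leaves only saline replicate 1 in that group, beside 50.4%. The number was also 5 of the 10 without Ang II replicate 3, beside 49.6%.

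For NaBu against Ang II all 10 genes had a fitted difference above 0, Fis1 by 0.00, beside 47.3% of all genes, with a median of 0.40 beside -0.02 over all genes. The libraries did not overlap for 8 of the 10, beside 18.1% of all genes higher without overlap. None of the 10 was called by edgeR, beside 0.647% of all genes called higher. At an unadjusted p under 0.05 the counts were 5 of the 10 and 3458 of all genes, and DESeq2 called 5 of the 10 higher (Apool, Apoo, Immt, Mfn1 and Dnm1l), beside 6.74% of the 12769 genes it gave an adjusted p. Without saline replicate 2 edgeR called 6 of the 10 higher, which were Apool, Apoo, Immt, Opa1, Mfn1 and Dnm1l, beside 6.16% of all genes. Without saline replicate 3 it called 1, Apool, beside 1.71%. The saline libraries enter this comparison only through the shared spread, the scaling and the filter.

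For NaBu against saline all 10 had a difference above 0, beside 44.7% of all genes, with a median of 0.43 beside -0.05. Of the 10, 7 were higher without overlap, beside 14.5% of all genes higher without overlap. Apool and Dnm1l were called higher, beside 3.01% of all genes. Without saline replicate 1 the genes called were Apoo and Dnm1l, beside 1.47% of all genes called higher. No gene of the 10 was called when NaBu replicate 2, 4 or 6 was left out. In that order, 5 of 15760, 68 of 15737 and 3 of 15759 of all genes were then called higher. Apool and Dnm1l also passed the test for any difference between the 3 groups, beside 2.32% of all genes. The comparisons share libraries, since each group enters 2 of them. Since the genes were chosen with these values known, nothing is read from any of these shares.

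**Figure D2:**
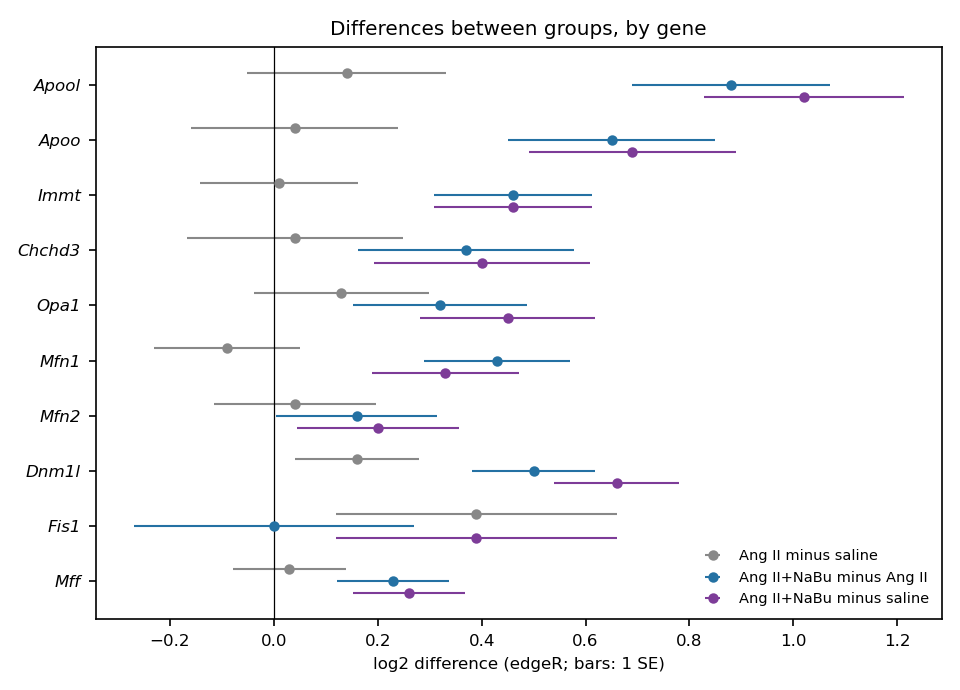
Log2 difference between groups (horizontal axis, edgeR) for each of the 10 genes, with 1 standard error as bars; grey is Ang II minus saline, blue is Ang II with NaBu minus Ang II, and purple is Ang II with NaBu minus saline. Ang II minus saline runs from -0.09 to 0.39, and Apool has the widest differences with NaBu, 0.88 and 1.02.

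The libraries inside a group also differed in a shared direction. Ang II replicate 1 was the lowest of its group for 9 of the 10 genes, and NaBu replicate 6 was the highest of all libraries for 9 of the 10, all but Apool. A list of 30 subunits of oxidative phosphorylation (OXPHOS) encoded in the nucleus followed the same order in part. Their median log2 level relative to each gene's mean over the 9 libraries was 0.06, -0.66 and 0.12 in saline, -0.34, 0.01 and 0.02 in Ang II, and 0.15, 0.24 and 0.39 in NaBu libraries. The median of the 10 genes was -0.04, -0.47 and 0.05, then -0.34, -0.04 and -0.01, then 0.32, 0.17 and 0.37 in the same libraries. All 30 subunits had a fitted difference above 0 for NaBu against Ang II, beside 47.3% of all genes, with a median of 0.36. Of the 30, 20 were higher without overlap, beside 18.1% of all genes. In the edgeR test 11 had an unadjusted p under 0.05 and none was called.

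Set against that OXPHOS median within each library, 3 of the 10 genes were higher in all NaBu than in all Ang II libraries, 2 were lower and 5 overlapped. By the same measure 2.09% of all 15467 genes were higher and 41.7% lower without overlap, and nothing is read from the counts of the 10. Apool was higher by 0.52 on the log2 scale, with -0.12, -0.12 and -0.17 in Ang II and 0.65, 0.19 and 0.30 in NaBu libraries. Apoo was higher by 0.29 and Dnm1l by 0.14, also without overlap. Mfn2 was lower by this measure, at 0.12, 0.02 and 0.06 in Ang II and -0.12, -0.12 and -0.15 in NaBu libraries, and Mff was at 0.14, 0.00 and -0.03 in Ang II and -0.06, -0.08 and -0.13 in NaBu libraries. The 5 that overlapped were Immt, Chchd3, Opa1, Mfn1 and Fis1.

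**Figure D3:**
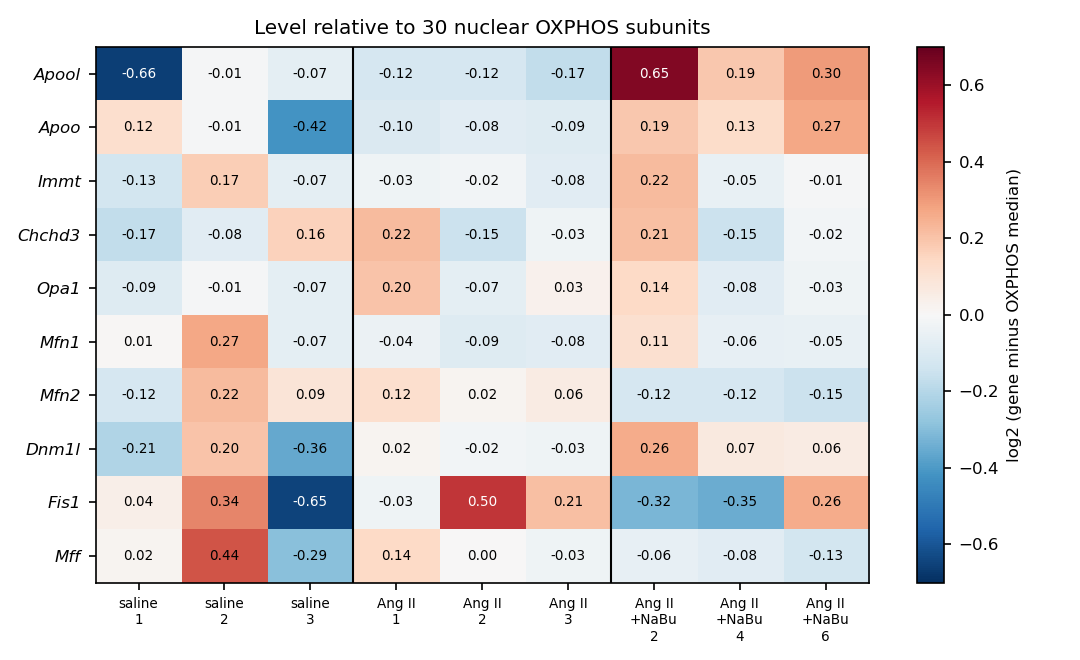
Log2 level of each gene relative to its mean over the 9 libraries, minus the median of the same quantity over 30 nuclear OXPHOS subunits, by library (columns) and gene (rows); red is above and blue below that median. Apool, Apoo and Dnm1l are higher in all NaBu than in all Ang II libraries, and Mfn2 and Mff are lower.

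Levels of cell type markers also differed between the groups. Of 10 ventricular cardiomyocyte markers, 9 had a fitted difference above 0 for NaBu against Ang II (median 0.38), and their summed level was 72520 to 76290 CPM in Ang II, 82120 to 90430 CPM in NaBu and 55110 to 88790 CPM in saline libraries. All 6 endothelial markers had a difference below 0 (median -0.24), with sums of 1452 to 1679 CPM in Ang II and 1234 to 1434 CPM in NaBu libraries. Of 8 fibroblast markers 6 were above 0 (2599 to 2742 against 2605 to 3273 CPM summed), of 6 macrophage markers 4 (135.3 to 148.0 against 141.5 to 166.6 CPM), and of 5 red blood cell markers none (1684 to 3011 against 1510 to 1877 CPM). Atrial markers summed to 24.53 to 53.23 CPM in Ang II and 50.09 to 83.38 CPM in NaBu libraries. Against saline, where Apool and Dnm1l were called, 8 of the 10 ventricular markers were above 0 with NaBu (median 0.37), as were 0 of 8 fibroblast (median -0.37, 2616 to 4468 CPM summed in saline), 0 of 6 endothelial (median -0.16, 1393 to 1746 CPM), 1 of 6 macrophage (median -0.29, 168.9 to 208.7 CPM), 0 of 5 atrial and 4 of 5 red blood cell markers (median 0.19, 1262 to 1795 CPM). For Ang II against saline, 6 of 10 ventricular (median 0.00), 0 of 8 fibroblast (median -0.48), 5 of 6 endothelial (median 0.10), 0 of 6 macrophage (median -0.39), 0 of 5 atrial and 5 of 5 red blood cell markers (median 0.67) were above 0. The atrial medians were -8.96 for Ang II and -7.70 for NaBu. These comparisons with saline include saline replicate 2. In saline replicates 1 to 3, ventricular markers summed to 76990, 55110 and 88790 CPM and fibroblast markers to 2616, 4468 and 3768 CPM. Macrophage markers summed to 168.9, 208.7 and 183.3 CPM and atrial markers to 59.59, 5634 and 256.7 CPM. The part of these markers in the differences of the 10 genes was not tested. In bulk tissue, fewer cells of a type and less RNA per cell cannot be told apart.

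The transcripts listed for the 10 genes numbered 72, and their values were looked at one by one, so those named below were chosen after their values were seen. Estimated counts can move between transcripts that share sequence, and each table of values holds a single group, so a difference between groups and one between tables cannot be told apart. The transcript NM_133585.3 of Opa1 received 1407, 1045 and 1009 estimated counts in saline, 1172, 1384 and 2286 in Ang II, and 471, 444 and 626 in NaBu libraries. It made up 16.07, 16.51 and 14.05% of the Opa1 counts in saline, 14.56, 15.74 and 19.03% in Ang II, and 3.92, 3.90 and 3.81% in NaBu libraries, so it was lower while the gene as a whole was higher.

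The other 5 Opa1 transcripts summed to 207.2, 215.1 and 224.7 CPM in Ang II and 315.7, 286.8 and 328.5 CPM in NaBu libraries. Among them XM_006248497.1 made up 18.4% ± 1.7 (SD, n = 3) of the gene with Ang II and 23.0% ± 2.2 with NaBu, and XM_006248498.1 made up 19.5% ± 1.32 and 25.2% ± 2.18. The log2 difference of NM_133585.3 between NaBu and Ang II was -1.76 (SE 0.215), and it was not called among 31914 transcripts, of which edgeR called 5 (0.0157%). The share fell by 12.56 percentage points between the group means, with -13.51 to -11.27 points when single libraries were left out and -16.56 points over the 4 Opa1 transcripts that RefSeq still lists. Shares without overlap, under 1 in 3 of the Ang II mean and at least 10 points lower, occurred in 1.56% of 20219 transcripts. These limits match the values of NM_133585.3, which was named after they were seen, so nothing is read from that percentage. By non-overlap alone, 6.46% of the 20219 transcripts were lower.

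**Figure D4:**
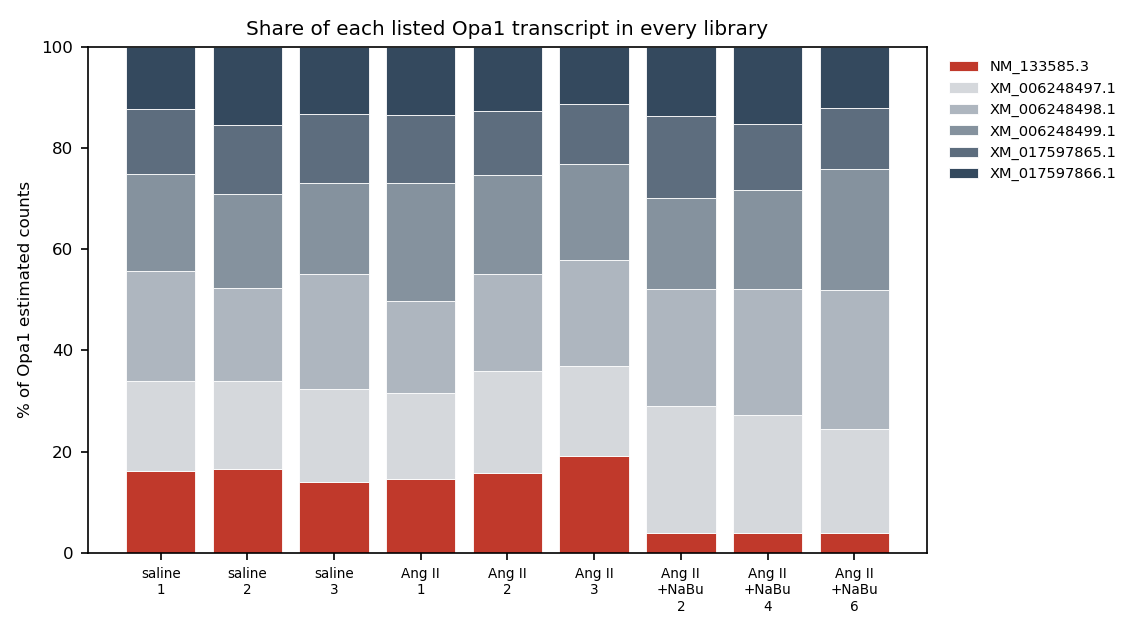
Share of the summed Opa1 estimated counts (%, vertical axis) given to each of the 6 listed transcripts in every library (horizontal axis, group and replicate number). The red segment, NM_133585.3, is 14.05 to 19.03% in the 6 saline and Ang II libraries and 3.81 to 3.92% in the NaBu libraries.

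For Immt, the transcript XM_008762987.2 made up 12.09, 10.14 and 9.99% of the gene in saline, 22.98, 25.05 and 20.92% in Ang II, and 26.35, 36.54 and 32.35% in NaBu libraries. All 3 groups were apart, in the order saline, Ang II, NaBu, beside 4.43% of all such shares higher without overlap for Ang II against saline and 5.78% for NaBu against saline, although the Immt total did not differ between saline and Ang II beyond its spread. It was the 1 transcript of the 72 called for NaBu against saline (log2 difference 2.04, SE 0.215), beside 0.0689% of all transcripts. RefSeq still lists 11 of the 15 Immt transcripts, and XM_008762987.2 is not among them. The number of the 15 Immt transcripts above 0 varied inside the groups, at 10, 15 and 7 in saline, 9, 7 and 15 in Ang II, and 15, 7 and 9 in NaBu libraries.

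Other transcript shares were peculiar to single libraries. Apoo XM_008773262.2 made up 22.46% of the gene in saline replicate 2 and at most 0.97% elsewhere, and Fis1 NM_001105919.1 made up 23.17% in Ang II replicate 3 and 9.17% in NaBu replicate 4, with at most 1.29% in the others. Of the 31 transcripts of the 10 genes with at least 5% of their gene in some group, 7 shares did not overlap between NaBu and Ang II, 5 higher and 2 lower, beside 5.89% of all such transcripts higher and 6.46% lower. Of the 2 lower, Apoo XM_008773262.2 reached 5% only in saline (mean 7.81%), with means of 0.736% in Ang II and 0.132% in NaBu. The only other Apoo transcript was among the 5 higher, because shares of a gene are tied to each other. Nothing is read from these counts.

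The pathway around the 10 genes was covered by 6 lists of other genes, with 60 genes in all, of which 59 were in the files and 58 were tested. For Ang II against saline 37 had a difference above 0 (median 0.03), edgeR called none, 2 had an unadjusted p under 0.05, and DESeq2 called none. For NaBu against Ang II 47 were above 0 (median 0.22), 22 were higher and 5 lower without overlap (18.1% and 17.5% of all genes), edgeR called none at an adjusted p under 0.05, and 20 had an unadjusted p under 0.05. DESeq2 called 8 higher and 1 lower, where it called 861 of all genes higher and 636 lower. Without saline replicate 2 edgeR called 12 in either direction, where 6.16% of all genes were called higher. Without saline replicate 3 it called 1, where 1.71% of all genes were called higher. For NaBu against saline 46 were above 0, and edgeR called 5 higher and 1 lower, beside 3.01% and 2.05% of all genes. The number called was 0 without saline replicate 2 or Ang II replicate 3, where 293 and 143 of all genes were called higher. It was also 0 without NaBu replicate 2, 4 or 6, where 5, 68 and 3 of all genes were. The number was 1 without Ang II replicate 2 (138 of all genes higher), 2 without saline replicate 1 (233), and 10 without saline replicate 3 (769). 

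Among MICOS partners and bridge proteins, 10 of 11 were above 0 for NaBu against Ang II and none was called. Chchd10, an intermembrane space protein tied to MICOS, had a log2 difference of 0.65 (adjusted p = 0.281, edgeR) and the inner membrane protein gene Letm1 one of 0.36 (adjusted p = 0.181, edgeR). Of the genes around OPA1, its proteases and prohibitin scaffold, 9 of 10 were above 0 and none was called. Phb2, a prohibitin, had 0.48 (adjusted p = 0.158) and Ghitm, an inner membrane protein of cristae, 0.44 (adjusted p = 0.182) in the same edgeR test. Oma1, the stress-activated protease that cleaves OPA1, was at 7.27 ± 0.97 CPM with saline and 11.1 ± 2.3 CPM with NaBu (SD, n = 3 each, log2 difference 0.62, edgeR adjusted p = 0.0752).

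Among regulators of fusion and of the outer membrane, Mul1, a ubiquitin and SUMO ligase, rose against saline by 0.41 on the log2 scale (SE 0.0915, edgeR adjusted p = 0.0368), from 51.1 ± 4.62 to 67.7 ± 0.918 CPM (SD, n = 3 each). For NaBu against Ang II, 6 of 8 genes of that list were above 0, with 0.45 for the ligase gene March5 (edgeR adjusted p = 0.121) and -0.40 for Park2, which encodes parkin (edgeR adjusted p = 0.337). Of the fission regulators 8 of 13 were above 0 and none was called, with 0.45 for the anchoring protein gene Akap1 (edgeR adjusted p = 0.0877) and -0.46 for the formin gene Inf2 (edgeR adjusted p = 0.0948). Against saline, the fission list had Mtfr1l (0.59, adjusted p = 0.0292) and the phosphatase gene Pgam5 (0.52, adjusted p = 0.0384) called higher by edgeR. Ang II differed from saline by 0.44 for Mtfr1l and 0.09 for Pgam5, and NaBu from Ang II by 0.15 and 0.43, none called. Mtfr2, a fission regulator at 2.95 ± 0.739 CPM with saline and 1.15 ± 0.116 CPM with NaBu, was called lower (-1.36, edgeR adjusted p = 0.0411), beside 2.05% of all genes.

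Genes of cardiolipin synthesis and remodelling had a median of 0.07 for NaBu against Ang II, with 8 of 10 above 0 and none called. Lclat1, an acyltransferase of cardiolipin remodelling, rose against saline by 0.60 (edgeR adjusted p = 0.0393), from 13.0 ± 2.03 to 19.6 ± 2.24 CPM. With Ang II it was at 16.7 ± 0.604 CPM, 0.37 above saline, and NaBu was 0.23 above Ang II, neither called. All 6 genes that carry mitochondria along microtubules were above 0 for NaBu against Ang II (median 0.33), with Armcx3 at 0.53 (adjusted p = 0.0537) and the kinesin gene Kif5b at 0.49 (adjusted p = 0.083) in the edgeR test. Armcx3 was called higher against saline (0.55, edgeR adjusted p = 0.0327). In the OXPHOS list, Uqcrfs1, Cox6c and Cycs were called higher against saline by edgeR, with log2 differences of 0.80, 0.75 and 0.83 (adjusted p = 0.0459, 0.0338 and 0.0424). Beside these, 3.01% of all genes were called higher. Saline replicate 2 was the lowest library for each, at 244, 245 and 289 CPM.

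**Figure D5:**
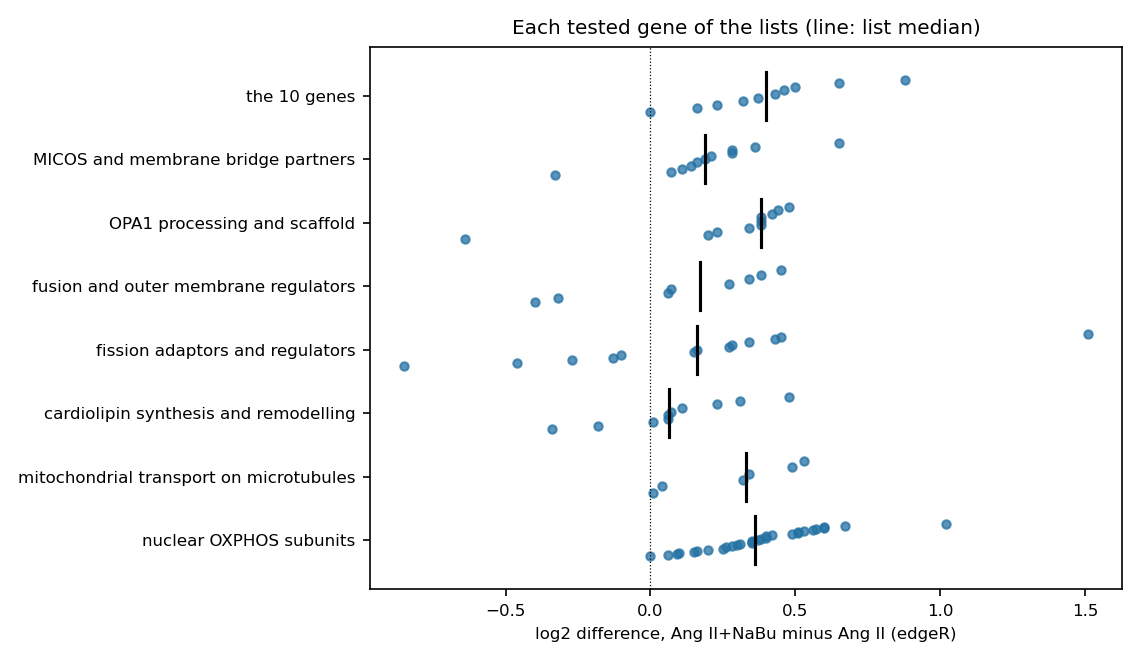
Log2 difference of Ang II with NaBu minus Ang II (horizontal axis, edgeR) for every tested gene of each list (points), with the list median as a bar and a dotted line at 0. The median is 0.40 for the 10 genes, 0.38 for the OPA1 processing list, 0.36 for the OXPHOS list and 0.07 for the cardiolipin list.

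Across the 9 libraries, the genes whose log2 CPM followed Apool most closely among genes with a mean of at least 5 CPM were Dag1 (Pearson r 0.990), Zfp180 (0.987), Fkbp4 (0.986), Ankrd40 (0.985) and Thumpd3 (0.983). Opa1, taken as the gene with the largest mean CPM, which is no per-length level, was followed by Kpna2 (0.994), Oxct1 (0.991), Klhl31 (0.990), Uqcc1 (0.990) and Rpl3l (0.989). Within the 10 genes, Apool correlated at 0.922 with Immt and 0.918 with Dnm1l, and at 0.261 with Fis1. Opa1 correlated at 0.958 with Chchd3 and 0.391 with Fis1. These values describe 9 libraries in 3 groups, share each library's scaling, and are given with no test.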

How the data were processed

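RNA-seq estimated counts per transcript were deposited by the authors as 1 table per group, with transcript ID, gene name and 1 column per library, per the file headers. The saline table carries a stray line-end character in its last column, which was stripped. All values were whole numbers. Of values from 1 to 14 in genes with a single transcript, 58.8% were multiples of 4 or 1 above these, beside 42.9% if spread evenly, so 1 fragment may be worth about 4 counts. Bowtie 0.12.2 and mm8, a mouse build, are named per the submitters' processing notes, whereas the IDs in the tables are RefSeq IDs of the rat. Which counting tool and annotation were used, and whether strand was used, is not given in the sources used here. The columns of the NaBu group are numbered 2, 4 and 6, and were mapped to the group only.

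The 55767 transcript rows were summed to 22608 gene names. The 3 groups were fitted together with edgeR 4.0.16 in R 4.3.3 (quasi-likelihood test, TMM factors 0.887 to 1.14, filterByExpr, Benjamini-Hochberg adjustment over 15467 genes, called under 0.05; common biological coefficient of variation 0.256; prior count 0.125 for log2 differences). SE is the standard error of the log2 difference. Depth was 29284780 to 49865446 estimated counts per library. Groups do not overlap where every library of one lies above every library of the other. Scripts were tested on simulated data. Other scalings, DESeq2 1.42.0, other filters, the transcript with the highest count, division by 4 and leaving out libraries were tried; leaving out saline replicates 2 and 3 together and the Opa1 share alternatives were chosen after seeing the data.

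All 10 genes are named. Of the lists, genes called in a comparison are named (at most 4 per direction), otherwise the 2 with the largest difference and a mean of at least 5 CPM; those named here are a part of these. The 10 genes and the lists were chosen with earlier results of these data known.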

Additional observations from a re-analysis of the deposited data

How the results depend on the processing

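For Ang II against saline edgeR called 0 genes. It called 248 for NaBu against Ang II (100 higher, 148 lower) and 782 for NaBu against saline (465 higher, 317 lower), and 359 differed between any of the groups. In the same order, DESeq2 called 60, 1497, 1994 and 1958, and the transcript with the highest count per gene gave 3, 5, 21 and 5. Total-count scaling gave 4 (2 higher, 2 lower), 411 (287 higher, 124 lower) and 58 for the last 3. It moved the median of all genes for NaBu against Ang II from -0.02 to -0.133, with the 10 genes at 0.289. Upper-quartile scaling gave 87 higher and 209 lower for NaBu against Ang II and 383 higher and 396 lower for NaBu against saline. Fitting only the groups compared gave 1, 1802 and 9, and leaving out saline replicates 2 and 3 gave 11, 1695, 109 and 994. With single libraries left out the counts were 0 to 7, 1 to 1482, 6 to 1303 and 2 to 923.

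Of the 10 genes, 0 were called for NaBu against Ang II and 2 against saline. DESeq2 called 5 and 5 higher, beside 861 of 12769 and 1239 of 13112 genes called higher. Fitting only the groups compared gave 7 and 0, beside 1082 of 15187 and 5 of 15099 genes called higher. The highest transcript gave 0 against saline, beside 16 of 15397 genes called higher. No filter and division by 4 each gave 1 against Ang II, Apool, beside 96 of 18048 and 159 of 13768 genes called higher. Without single libraries the ranges were 0 to 6 and 0 to 2. Of the pathway list genes 0 and 6 were called. The counts that follow stand beside those of all genes given above, and beside 356 genes called against Ang II after division by 4. DESeq2 gave 9 and 21, fitting only the groups compared 16 and 0, leaving out saline replicates 2 and 3 gave 14 and 0, division by 4 gave 1 against Ang II, total-count scaling gave 2 and the highest transcript 0 against saline, and the ranges without single libraries were 0 to 12 and 0 to 10. The cause was not tested, except that fewer libraries entered where some were left out.

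Upper-quartile and total-count scaling each left 9 of the 10 genes above 0 for NaBu against Ang II, Fis1 being below. With a replicate block, Ang II against saline gave 0 genes called and 0 of the 10. Same-numbered saline and Ang II libraries deviated with correlations of -0.00413, -0.0328 and 0.0078, and differently numbered ones with -0.0262 to 0.0289. Such values cannot show whether libraries of the same number were paired or shared a batch. The NaBu numbers match no pairing. With 3 libraries per group, small differences such as that of Mfn2 could not be told from 0.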
